A study of Mus musculus with 19 samples.

Results

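The Cyp1 family comprised Cyp1a1, Cyp1a2 and Cyp1b1, and its probes were taken as all those whose RefSeq accession in the scanner files belonged to one of these 3 genes. Each gene had 1 probe with a single spot, so the family was read by 3 of the 55681 non-control probes and made up 3 of 20660 gene symbols on the array: A_51_P279693 for Cyp1a1 (NM_009992), A_52_P595871 for Cyp1a2 (NM_009993) and A_51_P255456 for Cyp1b1 (NM_009994). Lung RNA came from 18 male MutaMouse, a transgenic strain used to score mutations, which were about 12 weeks old and received olive oil alone, or 8 polycyclic aromatic hydrocarbons mixed in it, by daily gavage for 28 days. Lungs were collected 72 h after the last dose. The vehicle controls (D0) were mice 1 to 5, the group given 15 mg benzo[a]pyrene (BaP) equivalents/kg-day (D1) was mice 21, 22, 24 and 25, that given 30 (D2) was mice 23, 26, 28, 29 and 30, and that given 60 (D3) was mice 31, 32, 34 and 35. RNA was extracted from random pieces of whole lung, while the study's methods name the right lobe as the part collected. In RNA of such mixed tissue, less RNA per cell and fewer cells of a type cannot be told apart in any value below. Each array carried lung RNA in red and a pooled reference RNA from 11 mouse cell lines in green, and a level is given as the log2 ratio of lung over reference.

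CYP1 enzymes are haem-containing monooxygenases of the endoplasmic reticulum. Their genes are classical targets of the aryl hydrocarbon receptor (AHR), which binds such hydrocarbons in the cytoplasm, enters the nucleus, pairs with ARNT and activates genes that carry its recognition element. The enzymes oxidise the hydrocarbons, a step that clears them and, with epoxide hydrolase, also forms the diol epoxides that bind to DNA. CYP1A1 and CYP1B1 act largely outside the liver, including in the lung, whereas CYP1A2 is known mainly as a liver enzyme.

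The promoter windows of the members are shown because all 3 genes are textbook AHR targets. The windows are from RefSeq (build GRCm38.p6), run from 250 bases before to 50 bases after the listed start of the gene, and are written 5′ to 3′ on the strand of the gene, with the letters GCGTG, the core of the AHR recognition element, in capitals on either strand (CACGC where the core lies on the opposite strand). Cyp1a1 is at chr9:57697363-57697662 on the plus strand, Cyp1a2 at chr9:57683606-57683905 on the minus strand and Cyp1b1 at chr17:79715012-79715311 on the minus strand.
Cyp1a1: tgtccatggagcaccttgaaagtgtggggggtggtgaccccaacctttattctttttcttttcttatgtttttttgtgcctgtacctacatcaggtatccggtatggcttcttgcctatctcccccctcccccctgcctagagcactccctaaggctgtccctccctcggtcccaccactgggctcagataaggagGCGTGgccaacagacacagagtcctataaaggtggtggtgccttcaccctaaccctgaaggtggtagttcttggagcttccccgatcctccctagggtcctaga
Cyp1a2: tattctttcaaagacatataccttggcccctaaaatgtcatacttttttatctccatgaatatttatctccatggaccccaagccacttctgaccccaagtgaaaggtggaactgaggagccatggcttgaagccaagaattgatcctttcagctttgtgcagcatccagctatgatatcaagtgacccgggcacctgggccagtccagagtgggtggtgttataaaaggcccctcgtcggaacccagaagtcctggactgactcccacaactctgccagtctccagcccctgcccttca
Cyp1b1: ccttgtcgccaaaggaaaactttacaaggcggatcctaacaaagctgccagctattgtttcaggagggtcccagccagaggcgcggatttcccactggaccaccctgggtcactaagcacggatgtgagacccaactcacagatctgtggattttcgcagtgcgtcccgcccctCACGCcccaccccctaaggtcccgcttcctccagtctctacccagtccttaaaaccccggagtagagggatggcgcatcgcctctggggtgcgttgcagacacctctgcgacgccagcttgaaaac
The Cyp1a1 window held 1 core, starting 54 bases before the listed start on the strand of the gene. The Cyp1b1 window held 1 core on the opposite strand, whose first letter as printed lies 76 bases before the start, and the Cyp1a2 window held 0. Recognition elements outside these short windows were not counted, so a window without a core does not show that the gene lacks one. No relation between the cores and the array values was tested. Of 32851 promoter windows of this length in the same table, 10639 (32.4%) held the core on at least one strand, so its presence does not set the members apart from other genes. The longer form TNGCGTG, which contains the core, was in 0 of the 3 windows and in 1664 windows (5.07%) of the table. Cyp1a1 and Cyp1a2 are neighbours on opposite strands, with 0 other genes listed between them.

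The red signal set what could be measured for each gene. A spot was called well above background by the scanner software, and the lowest lung signal to receive that call ranged from 84 to 102.5 units across the 19 arrays. Cyp1b1 was well above background in both channels on all 19 arrays, with lung signals of 188 to 361.5 in D0 and 724 to 2902 in the dosed mice. Cyp1a1 was well above background in the lung channel on all 19 arrays, at 117 to 189 in D0 and 158 to 4938 in the dosed mice, but its reference signal of 42 to 75 was well above background on 0 arrays. Cyp1a2 was well above background on 0 of 19 arrays in either channel. The members were therefore measured with unequal precision, with a reference signal well above background for Cyp1b1 and not for Cyp1a1. No spot of a member was saturated.

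**Figure D1:**
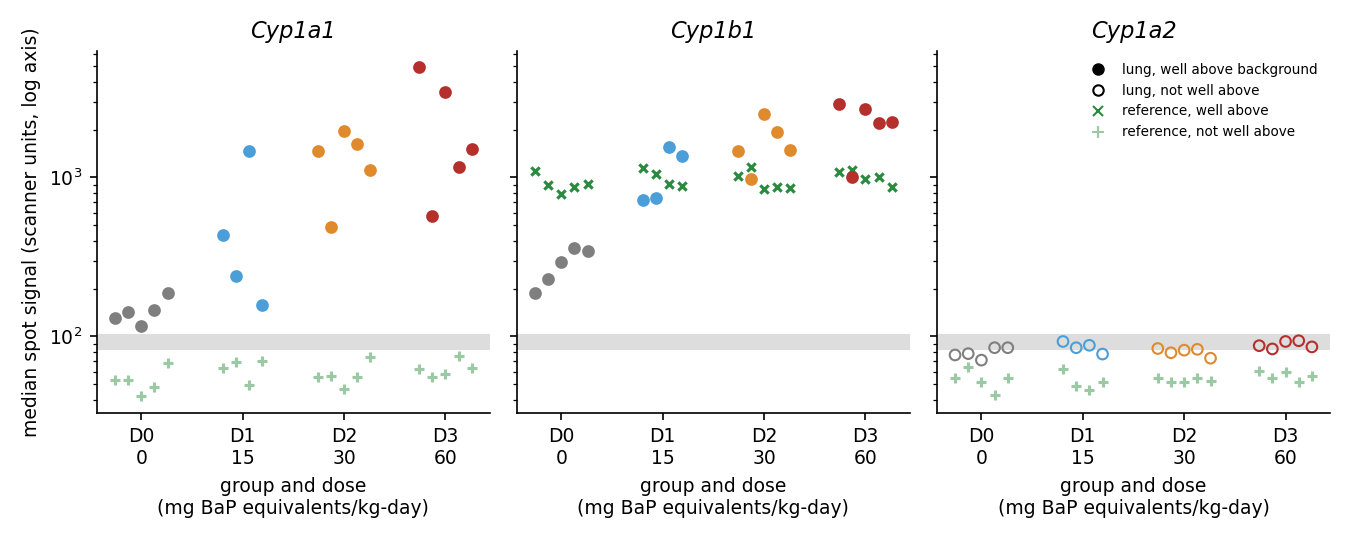
Median spot signal of the Cyp1 probes on each of the 19 arrays (log axis, scanner units, no background subtraction) by dose group, with lung as circles and the reference RNA as crosses or plus signs, and with open circles and pale plus signs for spots not well above background. The grey band spans the lowest lung signals called well above background, 84 to 102.5. Cyp1b1 and Cyp1a1 lung signals lie above the band in every mouse, whereas Cyp1a2 stays within or under it at every dose.

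Cyp1b1, an enzyme that oxidises aromatic hydrocarbons and oestrogens in lung and other tissues, was upregulated at all 3 doses relative to vehicle controls. The mean log2 ratio was -2.05 ± 0.25 (SD, n = 5) in D0, -0.39 ± 0.29 (n = 4) in D1, 0.37 ± 0.38 (n = 5) in D2 and 0.64 ± 0.59 (n = 4) in D3. The control mice 1 to 5 had log2 ratios of -2.35, -2.13, -2.01, -1.65 and -2.10. Those of D1 mice 21, 22, 24 and 25 were -0.69, -0.49, -0.00 and -0.36. Those of D2 mice 23, 26, 28, 29 and 30 were -0.07, 0.78, 0.02, 0.58 and 0.55. Every dosed mouse to this point was above all 5 controls. In D3, mice 31, 32, 34 and 35 were at 1.44, 0.18, 0.71 and 0.22, again all above the controls, with mouse 31 the highest of all 18.

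The fitted change of Cyp1b1 was 3.16-fold at D1 (log2 1.66, SE 0.23, limma adjusted p = 0.000718), 5.34-fold at D2 (log2 2.42, SE 0.22, limma adjusted p = 2.44e-06) and 6.42-fold at D3 (log2 2.68, SE 0.23, limma adjusted p = 4.62e-07). A probe was called at an adjusted p of at most 0.05 and at least 1.5-fold, over 30999 probes tested. Among those probes, 0.594% were called higher at D1, 0.435% at D2 and 1.21% at D3. By size of the rise, Cyp1b1 ranked 7 at D1, 3 at D2 and 6 at D3. Within the slides, the change was 1.65, 1.83 and 1.74 on the log2 scale at D1 on slides 1, 2 and 3, 2.64, 2.39 and 2.03 at D2, and 3.05, 2.32 and 2.27 at D3, each from 1 or 2 arrays a group. On every slide the array column also followed the dose, and the effects of column and dose cannot be told apart.

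Cyp1a1, the most inducible enzyme of the family, was upregulated at D2 and D3 and did not pass the test at D1, where the mice spread widely. Its mean log2 ratio was 0.83 ± 0.15 (SD, n = 5) in D0, 2.11 ± 1.52 (n = 4) in D1, 3.79 ± 0.76 (n = 5) in D2 and 4.44 ± 1.43 (n = 4) in D3. Control mice 1 to 5 were tightly grouped at 0.91, 0.99, 0.66, 0.89 and 0.69. Mice 21, 22, 24 and 25 of D1 were at 2.48, 1.54, 4.01 and 0.43, so 3 of the 4 were above all controls and mouse 25 was below them. Mice 23, 26, 28, 29 and 30 of D2 were at 2.98, 4.67, 2.99, 4.25 and 4.05. Mice 31, 32, 34 and 35 of D3 were at 6.18, 3.30, 5.03 and 3.24. The D2 and D3 mice did not overlap with the controls, while the D1 range reached from under the controls into the D2 and D3 ranges.

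The fitted change of Cyp1a1 was 2.44-fold at D1 (log2 1.29, SE 0.61, limma adjusted p = 0.246), 7.78-fold at D2 (log2 2.96, SE 0.57, limma adjusted p = 0.00892) and 12.2-fold at D3 (log2 3.61, SE 0.61, limma adjusted p = 0.000837). Read against the shares of probes called higher given above, 1 of the 2 tested members was called at D1 and both at D2 and D3. Of 30999 probes Cyp1a1 had the rank 1 by size of the rise at D2 and 2 at D3, but rank 191 and 378 by p-value, and its SE of 0.57 to 0.61 was over 2 times that of Cyp1b1. With each mouse left out in turn, the log2 change at D1 ran from 0.65 without mouse 24 (limma adjusted p = 0.563) to 1.85 without mouse 25 (limma adjusted p = 0.0993). Single mice of D1 thus moved this value without reaching a call. Within slides 1, 2 and 3, the change of Cyp1a1 was 1.06, 3.23 and -0.26 on the log2 scale at D1, 2.87, 3.37 and 2.30 at D2, and 3.79, 3.26 and 2.75 at D3, so the D1 values were far apart and slide 2 showed no order by dose. Centring each array on its median in place of loess ended the D2 call (log2 2.93, adjusted p = 0.0831).

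Mouse 25 was at the control level in one member and not in the other. In Cyp1a1 it was not an outlier of D1 by Dixon's ratio (0.311 against a critical value of 0.829), and mouse 24 lay farther from the D1 mean, with a deviation of 1.89 beside -1.69 for mouse 25. The Cyp1a1 log2 ratio of mouse 25 was 0.43, under the lowest control at 0.66, while its Cyp1b1 log2 ratio of -0.36 was above the highest control at -1.65 and 3.23 times the D0 mean. It lay under all 5 controls in 6 of 8 ways to process the arrays, among them the normexp background correction with an offset of 50 units (0.42 against a lowest control of 0.53). From the processed signals of the scanner software, which are background-subtracted, its Cyp1a1 log2 ratio was 2.94, inside the control range of 2.18 to 3.98, and it was inside that range also with the processed lung signal alone. It lay on slide 3, where the only control was mouse 5, and there its Cyp1a1 change was -0.26 on the log2 scale and its Cyp1b1 change was 1.74. With the ratio of the processed signals the Cyp1a1 change against mouse 5 was 0.75, and that of Cyp1b1 was 2.10. With the processed lung signal alone these changes were -0.64 and 2.02. The 0.75 includes the reference signal of Cyp1a1, which was well above background on 0 arrays. Over 13 lists of cell type markers, the mean log2 ratio of mouse 25 was outside the range of the other 17 mice in 1, the fibroblast list. The part of these in its low Cyp1a1 value was not tested.

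The size of the Cyp1a1 change differed between ways to handle background, and not always in one direction. The control lung signals of 117 to 189 stood on a local background of 71 to 74, and the reference signals of 42 to 75 on one of 24 to 34. With the processed signals, which subtract background, the log2 changes in dose order were 1.77, 3.90 and 4.43. After the normexp background correction, which adds an offset of 50 units to each corrected signal, they were 1.26, 2.88 and 3.52. These were slightly under the unsubtracted 1.29, 2.96 and 3.61, and the part of the offset was not tested. With the processed lung signal alone, leaving out the reference, they were 1.84, 3.89 and 4.61. With the unsubtracted lung signal alone they were 1.17, 2.85 and 3.51, near the ratio-based values. Cyp1b1 changed less with these settings, from 1.66, 2.42 and 2.68 to 2.07, 2.87 and 3.19 with the processed signals, and the calls of both genes were the same under all of these.

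**Figure D2:**
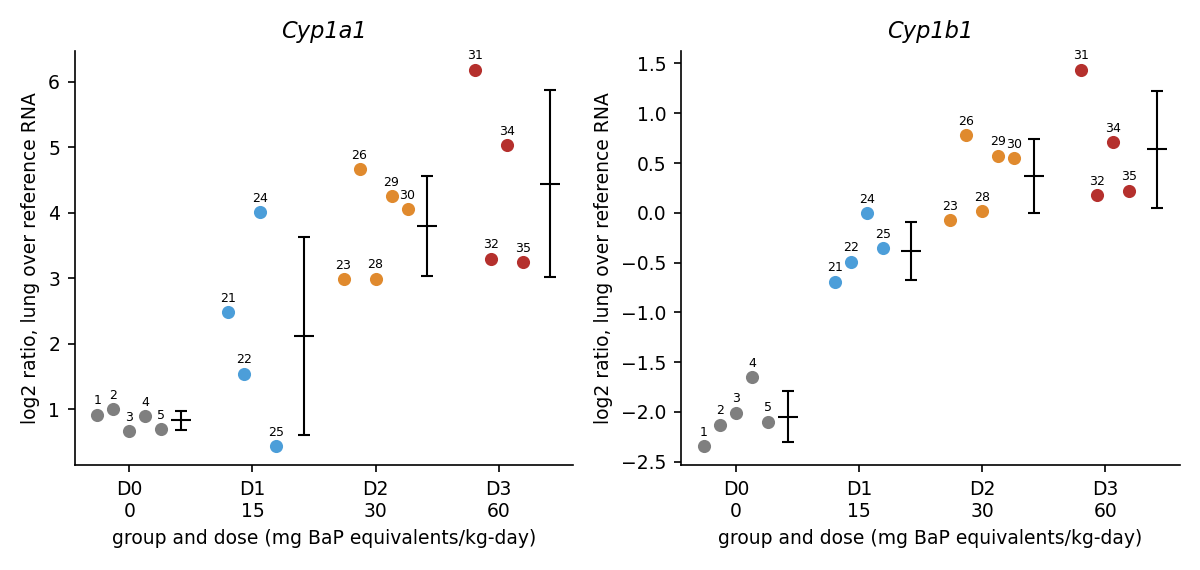
Log2 ratio of lung over reference RNA for Cyp1a1 and Cyp1b1 in each of 18 mice, numbered, by dose group, with the mean and SD of each group as the bar to its right (5, 4, 5 and 4 mice). All dosed mice lie above the controls for Cyp1b1, whereas for Cyp1a1 mouse 25 of D1 lies below them.

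**Figure D3:**
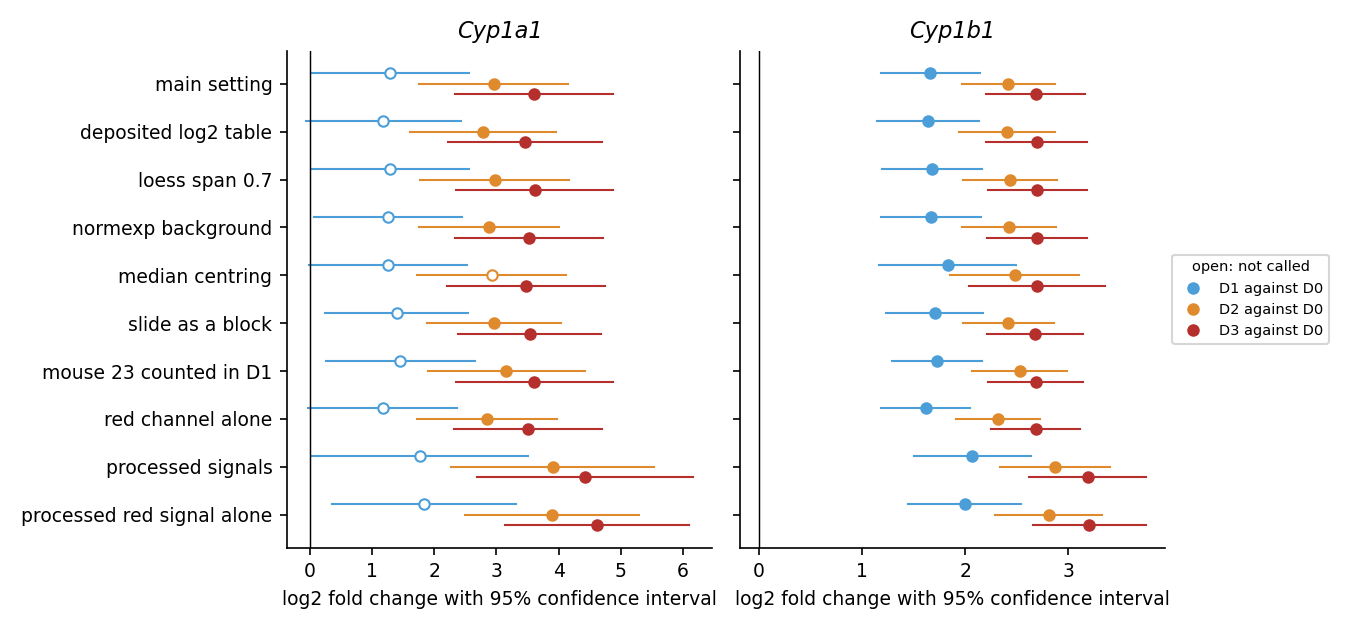
Log2 fold change of Cyp1a1 and Cyp1b1 against D0 with its 95% confidence interval, for each dose, under the main setting and 9 other ways to process the arrays or group the mice. Filled points passed the call and open points did not: Cyp1b1 was called throughout, Cyp1a1 at D1 was never called, and Cyp1a1 at D2 lost its call under median centring.

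Cyp1a2, an enzyme of caffeine and arylamine oxidation in the liver, was not detected in these lungs. It was well above background in 0 of 5 mice in D0, 0 of 4 in D1, 0 of 5 in D2 and 0 of 4 in D3. Its lung signals were 71 to 85 in D0, 77.5 to 93 in D1, 73 to 84 in D2 and 83.5 to 94 in D3, beside local backgrounds of 70 to 83. By the other rule, a signal over the mean plus 3 SD of the negative controls, 1 of 19 arrays passed, that of D1 mouse 21 with a signal of 93 against a limit of 92.2. No fold change is given, since both sides of any comparison were at background. A rise that stayed under the lowest detectable signal would not be seen. The gene was read by 1 probe that was at background in both channels, so a probe that does not work cannot be told apart from an absent transcript. Of 6 liver markers, Alb was well above background in 3, 2, 3 and 2 mice of D0, D1, D2 and D3, and Apoa1 and Ttr each in 2, 1, 1 and 0. The other 3, Cyp2e1, Fabp1 and Serpina1a, were well above background in all 18 mice, with mean lung signals of 882, 1016 and 846.

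Between dose groups neither detected member passed the test, although both means rose in the order of dose. From D1 to D2 the log2 difference was 0.75 for Cyp1b1 (95% confidence interval 0.27 to 1.23, limma adjusted p = 0.311) and 1.67 for Cyp1a1 (0.40 to 2.94, adjusted p = 0.373). From D2 to D3 it was 0.27 for Cyp1b1 (-0.21 to 0.75, adjusted p = 0.708) and 0.65 for Cyp1a1 (-0.62 to 1.92, adjusted p = 0.740). From D1 to D3 it was 1.02 for Cyp1b1 (0.52 to 1.53, adjusted p = 0.115) and 2.32 for Cyp1a1 (0.98 to 3.66, adjusted p = 0.225). Both members thus had unadjusted intervals above 0 from D1 to D2 and from D1 to D3, and intervals that included 0 from D2 to D3. In those 3 comparisons 0%, 0.106% and 0.145% of all tested probes were called by limma, for D1 to D2, D2 to D3 and D1 to D3, against 3049, 3626 and 2379 probes with an unadjusted p under 0.05. The numbers of probes behind these shares were small and moved with single mice: without mouse 28 of D2, 58 probes were called from D1 to D2 in place of 0 and 83 from D2 to D3 in place of 33.

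Exact permutation tests over mice, 12 in all, gave a similar order. For Cyp1b1 the 2-sided exact p was 0.00794 at each dose against D0 (adjusted 0.0190), which is the smallest these group sizes allow. It was 0.0397 from D1 to D2 (adjusted 0.0680), 0.437 from D2 to D3 and 0.0286 from D1 to D3 (adjusted 0.0571), the last also the smallest possible. The D1 and D3 mice did not overlap in Cyp1b1, and only mouse 23 brought the D2 range into that of D1. For Cyp1a1 the exact p was 0.0635 at D1 and 0.00794 at D2 and at D3 against D0, and 0.0714, 0.405 and 0.0857 from D1 to D2, D2 to D3 and D1 to D3. With dose as a straight line both genes passed, with a fitted log2 change from 0 to 60 of 2.59 for Cyp1b1 (SE 0.38, limma adjusted p = 0.000306) and 3.70 for Cyp1a1 (SE 0.63, adjusted p = 0.00127), where 0.952% of probes were called higher. On the log2 scale the larger part of the fitted rise of Cyp1b1 was already present at D1, so a straight line is only a summary of it.

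The change of Cyp1a1 was compared with that of Cyp1b1 by taking the log2 ratio of one minus that of the other in each mouse. The change of Cyp1a1 was smaller by 0.38 on the log2 scale at D1 and larger by 0.54 at D2 and by 0.93 at D3. None of these 3 differences passed the 2-sided exact permutation test over mice after adjustment over the doses, with p = 0.619 at D1 (adjusted 0.619), 0.0556 at D2 (adjusted 0.0833) and 0.0556 at D3 (adjusted 0.0833). At D1 the difference changed sign to 0.20 without mouse 25. With the processed lung signal alone, a setting chosen after seeing the data, the differences at D2 and D3 were 1.08 and 1.41 and passed (exact permutation test, adjusted p = 0.0357 for both). The other settings that correct for background did not pass, with 1.03 and 1.24 from the ratio of the processed signals and 0.46 and 0.82 after normexp with its offset of 50 units (exact permutation test, adjusted p = 0.155 for all 4). The ranking of the 2 changes in size was therefore not fixed by these arrays.

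Mice of one dose group that were high in Cyp1a1 tended to be high in Cyp1b1. After the mean of each dose group was removed, the deviations of the 13 dosed mice had Pearson's r = 0.79 (permutation p = 0.00308) and Spearman's rho = 0.81 (permutation p = 0.00327), with 100000 draws within groups. The 2 deviations had the same sign in 11 of 13 mice, the exceptions being mice 21 and 25 of D1. Mouse 31 of D3 and mouse 24 of D1 were highest of their groups in both genes, and mice 23 and 28 of D2 were lowest in both. Without mice 24 and 25, the 2 whose Cyp1a1 deviations lay farthest from the median deviation, a choice made after seeing the data, r was 0.92 (permutation p = 0.00456). Without mice 31 and 25, the 2 farthest from the median Cyp1a1 log2 ratio of all dosed mice, it was 0.89 (permutation p = 0.0063). Mouse 25, whose deviations differed in sign, was left out of both, and r was 0.71 (permutation p = 0.0152) without mouse 31 alone. With slide also removed r was 0.77 (permutation p = 0.0198), and slides held too few mice of a group for a value within each. Both genes of a mouse were read from the same array, and its part in the relation was not tested. From the lung signal alone, r was 0.74 (permutation p = 0.00748). Mouse 35 was hybridised a second time, and its 2 arrays differed by 0.39 in the Cyp1a1 log2 ratio and by -0.09 in that of Cyp1b1.

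**Figure D4:**
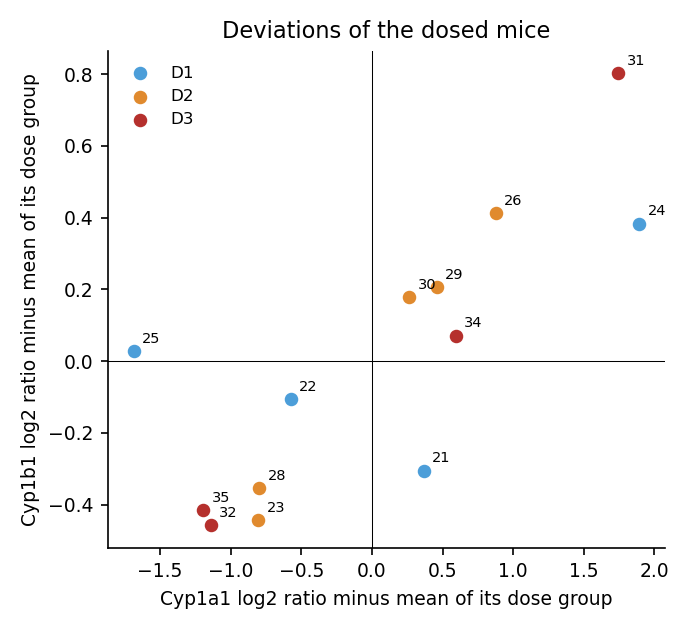
Deviation of the Cyp1b1 log2 ratio from the mean of its dose group, plotted against that of Cyp1a1, for the 13 dosed mice, numbered and coloured by group. For 11 mice both deviations have the same sign, and for mice 21 and 25 of D1 they do not.

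Few other genes of AHR signalling and hydrocarbon metabolism moved with the Cyp1 genes. Of 35 genes listed without the members, 33 had a probe and 32 were tested, each by its brightest probe. Called higher were 3 at D1, 2 at D2 and 3 at D3, and called lower 0 at each dose. Ahrr and Ephx2 passed the filter through dosed groups only, being well above background in 1 and 3 of 5 controls. Of the other 30 genes, 2, 1 and 2 were called higher and 0 lower. The genes called higher were 9.38%, 6.25% and 9.38% of the list (6.67%, 3.33% and 6.67% of those 30), beside 0.594%, 0.435% and 1.21% of all probes called higher, and 0.465%, 0.19% and 1.23% called lower, by limma. At an unadjusted p under 0.05, the list had 0, 1 and 2 lower genes and 5, 4 and 5 higher ones, in all 15.6%, 15.6% and 21.9% of it, near the 19.8%, 14.8% and 26.2% of all probes. The median log2 change of the list was 0.07, -0.00 and 0.02, beside 0.01, -0.00 and -0.00 over all probes. Its calls lay in 4 genes.

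Of the receptor and its partners, 1 of 10 tested genes was called. Ahr itself, the receptor, had log2 changes of -0.06, -0.10 and -0.27 in dose order (limma adjusted p = 0.128 at D3), and its partner Arnt had -0.08, 0.23 and 0.09, with none passing. Ahrr, the repressor that competes with AHR for ARNT and is itself an AHR target, rose at all doses, with fitted changes of 2.83-, 3.46- and 3.57-fold (limma adjusted p = 1.99e-05, 7.44e-07 and 2.84e-07). Its log2 ratios ran from -0.77 to -0.51 in D0, 0.61 to 1.37 in D1, 0.75 to 1.43 in D2 and 1.04 to 1.37 in D3, so no dosed mouse overlapped with the controls. It was well above background in 1 of 5 control mice and in all dosed mice. The D0 level was thus mostly not measured above background, and the folds and p-values of Ahrr rest on it: they are fitted values, not exact sizes of the rise.

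Among the enzymes of oxidation, reduction and hydrolysis, 3 of 8 tested genes were called at some dose. Ephx1, the microsomal epoxide hydrolase that acts on the epoxides made by CYP1 enzymes, rose by 0.77, 0.99 and 1.38 on the log2 scale at D1, D2 and D3 (limma adjusted p = 0.000802, 1.87e-05 and 1.31e-07). Its highest control was at 1.67 and its lowest dosed mouse at 2.12. Nqo1, a quinone reductase, rose at D3 (log2 0.59, 1.51-fold, adjusted p = 0.016), and Xdh, xanthine dehydrogenase, rose at D1 (log2 0.60, 1.52-fold, adjusted p = 0.0292) but had 0.14 and 0.20 at D2 and D3. Both of these lay just over the fold threshold. The Nqo1 call was lost without mouse 1 or 5 of D0 or mouse 31 or 32 of D3, and the Xdh call without mouse 3 or 4 of D0 or mouse 21, 22 or 25 of D1. Their log2 changes ran from 0.47 to 0.66 and from 0.51 to 0.68 with single mice left out, whereas the calls of Ephx1 held without each of the 18 mice. The calls of Ahrr held as well, but against a control level mostly not measured above background. Of 4 electron donors of P450 enzymes 0 were called, including Por, the reductase on which CYP1 activity depends (log2 -0.01, 0.12 and -0.07). Of 10 conjugating enzymes 0 were called, glutathione transferases and Ugt1a6 genes included.

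**Figure D5:**
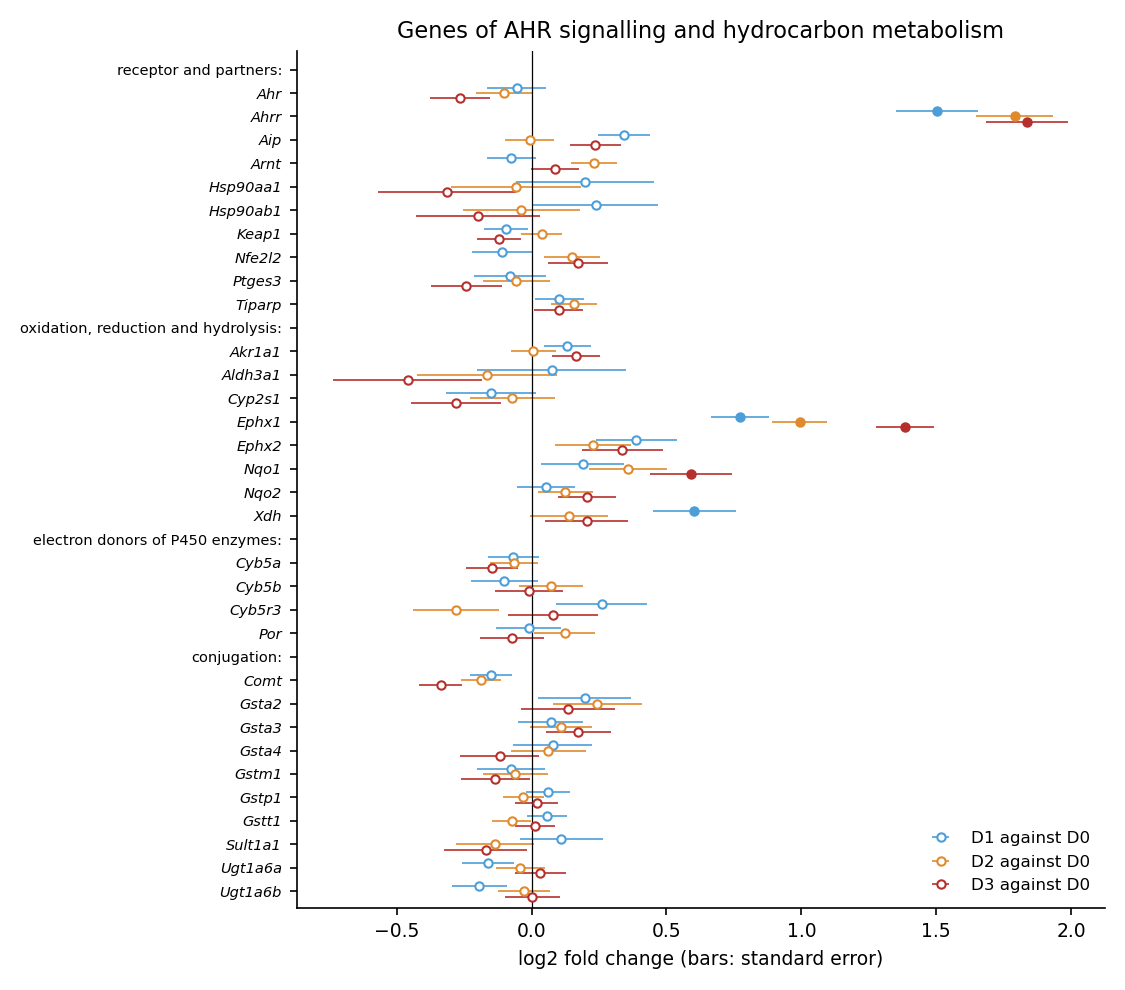
Log2 fold change against D0 with its standard error for the 32 tested genes of AHR signalling and hydrocarbon metabolism, grouped by role, at D1, D2 and D3. Filled points passed the call: Ahrr and Ephx1 at all doses, Xdh at D1 and Nqo1 at D3, while most genes lie near 0.

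The genes whose log2 ratios followed the members most closely over the 18 mice were sought among 14733 other gene symbols. For Cyp1b1 they were Ahrr (r = 0.96), Serp2 (0.95), Trp53inp1, a p53 target (0.95), Nhlrc2 (0.94) and Ephx1 (0.94). The r of Ahrr includes control values mostly at background, since it was well above background in 1 of 5 control mice. For Cyp1a1 they were Nhlrc2 (0.88), Mysm1, a histone deubiquitinase (0.88), Rnf169, a ubiquitin ligase (0.86), Slc46a3, a lysosomal transporter (0.86), and Pigyl (0.86). Nhlrc2 was on both lists. These r-values include the differences between dose groups, were picked as the highest of many and are given as descriptions. The log2 changes of these genes at D3 were 1.84 for Ahrr, 1.57 for Serp2, 1.42 for Trp53inp1, 1.38 for Ephx1 and 1.07 for Nhlrc2. They were 0.82 for Slc46a3, 0.68 for Rnf169, 0.35 for Mysm1 and 0.28 for Pigyl. The values of the genes other than Ahrr lay under those of both members at D3, and the differences were not tested. The change of Ahrr rests on a control level mostly not measured above background, so its size was not ranked against the members at any dose. Mysm1 and Pigyl were called at no dose.

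Markers of other cells moved with dose in part. Lung markers such as Sftpc and Scgb1a1 were well above background in every mouse. Of 4 neutrophil markers, S100a8, S100a9 and Retnlg were higher at D3 and did not pass at D1 or D2. The other, Csf3r, had log2 changes of -0.37, -0.18 and -0.46 (limma adjusted p = 0.0444, 0.404 and 0.00654), under the fold threshold at each dose. The mean log2 ratio of the 4 was 2.41 to 3.15 in D0, 3.08 to 3.34 in D1, 2.81 to 3.53 in D2 and 3.13 to 4.50 in D3. Of 5 T and NK markers only Gzma was called, lower at all doses (log2 -1.60, -2.13 and -3.07). The median log2 change of the 5 was -0.27, -0.10 and -0.33. The list means, which include Gzma, were 0.88 to 1.66 in D0, 0.58 to 1.12 in D1, 0.55 to 1.07 in D2 and 0.43 to 1.02 in D3. Of 6 endothelial markers only Pecam1 was called, higher at D1 and D3, with list means of 5.23 to 5.74, 5.35 to 5.98, 5.42 to 5.87 and 5.42 to 5.76 in D0 to D3. Siglecf of 4 macrophage markers was lower at D2, Dcn of 5 fibroblast markers was lower at D3, and Fabp1 of 3 tested liver markers was lower at D3. No other member of these lists was called. Their median log2 changes at those doses were -0.73 for macrophage, -0.11 for fibroblast and 0.18 for liver markers, the last opposite in sign to Fabp1. Cardiac muscle markers were well above background in all mice, with list means from 0.50 to 4.43. Their part in the changes of Cyp1a1 and Cyp1b1 was not tested.

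Mouse 23 was kept in D2 as labelled, although its number falls among those of D1 and the study's methods give D1 1 more mouse and D2 1 fewer. Counted in D1, it gave log2 changes for Cyp1a1 of 1.46 and 3.16 at D1 and D2 and for Cyp1b1 of 1.72 and 2.53, with the calls against D0 as before. The labels number mice separately, so p-values measure the spread between animals.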

How the data were processed

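The authors hybridised lung RNA (Cy5) and Universal Mouse Reference RNA (Cy3) to 2-colour Agilent arrays without dye swap; per the file headers, Feature Extraction 11.0.1.1 read them on a G2505C scanner. The deposited spot intensity values are unnormalized median, background and processed signals, and the deposited log2 table, an alternative here, is the authors' normalized ratio of Cy5 over Cy3. From the median signals, without background subtraction, loess (span 0.3) gave log2 ratios per array after control and outlier spots were left out. The 2 arrays of mouse 35 were averaged. Probes were tested if well above background in the lung channel in at least 4 mice of a group. limma 3.58.1 (R 4.3.3) fitted 1 model to 18 mice, in place of the authors' MAANOVA, with Benjamini-Hochberg adjustment over 30999 probes. Single values were tested by exact permutation (Python 3.11.15). The fits were tested on simulated data. Of 22765 RefSeq accessions on the array, 21465 matched a symbol in RefSeq's GRCm38.p6 table; the array design names an older build. Named were all member probes, the listed AHR and hydrocarbon metabolism genes called at any dose with Ahr, Arnt and Por, and the 5 genes most alike each member. Members and lists were chosen with earlier results of these data known. Precision is limited by the number of arrays; lung and reference signals were well above background for 54.5 to 64.7% and 47.0 to 61.6% of spots.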

Additional observations from a re-analysis of the deposited data

How the results depend on the processing

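The calls of Cyp1b1 at each dose against D0, of Cyp1a1 at D3 and of both trends held under every alternative run, and Cyp1a1 at D1 was called under none. Under median centring, which moved the median of all probes by 0.17, 0.12 and 0.06 on the log2 scale at D1, D2 and D3, Cyp1a1 at D2 was no longer called (log2 2.93, limma adjusted p = 0.0831), the probes called fell to 12, 18 and 98 from 328, 194 and 754, and the list of AHR and hydrocarbon metabolism genes had 1 gene called higher at D1 and 1 at D2. The probes called were 639, 348 and 1370 with the processed signals and 818, 424 and 1514 with the processed lung signal alone, a setting chosen after seeing the data. That setting also brought the change of Cyp1a1 minus that of Cyp1b1 past its test at D2 (1.08) and D3 (1.41). The cause of these shifts was not tested. Negative controls as the limit gave 1 array with Cyp1a2.

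With each mouse left out in turn, log2 changes ran from 1.53 to 1.76, 2.31 to 2.53 and 2.42 to 2.84 for Cyp1b1 and from 0.65 to 1.85, 2.74 to 3.16 and 3.03 to 4.01 for Cyp1a1 at D1, D2 and D3. From D1 to D2, D2 to D3 and D1 to D3 they ran from 0.65 to 0.88, -0.00 to 0.42 and 0.75 to 1.17 for Cyp1b1, where the sign at D2 to D3 turned without mouse 31 (-0.000377), and from 1.11 to 2.30, 0.07 to 1.05 and 1.74 to 2.96 for Cyp1a1. Trends ran from 2.42 to 2.88 and 3.31 to 4.21. The change of Cyp1a1 minus that of Cyp1b1 ran from -0.88 to 0.20 at D1, 0.20 being the value without mouse 25, 0.43 to 0.65 at D2 and 0.61 to 1.19 at D3. The correlation of deviations ran from 0.71 to 0.93, and probes called from 282 to 391, 166 to 218 and 642 to 790. Between doses the probes called ran from 0 to 58 (D1 to D2), 16 to 83 (D2 to D3) and 25 to 51 (D1 to D3). The highest of the first and second were without mouse 28 of D2. From D2 to D3 the count fell by over 1.5 times, to 16 to 19, without mouse 23 or 30 of D2 or 31, 32 or 35 of D3, and from D1 to D3, to 25 to 28, without mouse 21 or 25 of D1 or 31, 32 or 35 of D3. No call of Cyp1a1 or Cyp1b1 against D0 was lost. The list of AHR and hydrocarbon metabolism genes had 2 to 3 called higher at D1, 2 at D2 and 2 to 3 at D3, the calls lost being those of Xdh and Nqo1. No paired analysis by replicate number was possible because the groups share none. With slide as a block, each slide holding all 4 groups, no call of Cyp1a1 or Cyp1b1 changed, and the list of AHR and hydrocarbon metabolism genes had 2 called higher at each dose. The normexp correction used median signals, since the files hold no mean signals. Cyp1a2 and the reference channel of Cyp1a1 are limited by signal over background.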
